A study of Homo sapiens with 9 samples.

Results

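The genes described here encode the chains and receptors that fix a squamous cell to its basement membrane: 2 chains of laminin-332 (LAMA3 and LAMB3), collagen XVII (COL17A1), and 6 integrin subunits (ITGA6, ITGB4, ITGA3, ITGB1, ITGAV and ITGB6). These 9 genes were chosen by name, from a list, among the 78894 gene identifiers of each sample, and all 9 were found and passed the filter on low values. RNA was sequenced from CAL27, an established human line of tongue squamous carcinoma, in 4 groups named in the sample titles: 3 samples of Control cells and 2 samples each of the CRISPR knockout groups A2ko, A8ko and C9ko. All groups were grown alike in DMEM with fetal bovine serum and had no treatment. The study, by its title, concerns an enhancer in head and neck cancer. The labels do not name the edited sequence of any knockout, nor do they state if cells were cloned or pooled, so no targeted gene could be checked.

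Laminin-332 is a heterotrimer of the basement membrane made by stratified epithelia. In a hemidesmosome, the integrin of ITGA6 and ITGB4 binds laminin-332 outside the cell and, with collagen XVII and the plakins, connects to keratin filaments inside it. ITGA3 pairs with ITGB1 into a second laminin-332 receptor that acts in adhesion and migration, and ITGAV pairs with ITGB6 into an epithelial receptor that binds fibronectin, tenascin-C and latent TGF-beta.

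Both A2ko files held the same values, and so did both A8ko files; in each pair both headers carried the name of the second library. An identical pair entered once, so the 7 distinct libraries were 3 of Control, 2 of C9ko and 1 of each other knockout. A2ko and A8ko thus had no replicate and no test. Values are TPM, a share of the library per transcript length, and the depth behind them is unknown. A2ko stood apart with 16716 genes at 1 TPM or more, where the other libraries had 15556 to 15954, and with a TPM total of 1000129.78. Mitochondrial genes held 23.1% to 26.9% of TPM in Control, against 25.2% for A2ko, 20.6% for A8ko and, for C9ko, 20.2% and 17.9%. With these genes left out, COL17A1 in A2ko differed from Control by -1.67 log2 units. The part of the larger number of detected genes in the A2ko results was not tested. Over the 17100 tested genes, the median difference from Control on the log2(TPM + 1) scale was 0.12 (A2ko), 0.09 (A8ko) and 0.11 (C9ko); it came to 0.00, 0.00 and -0.01 when libraries were scaled by their median of ratios. All 8 squamous epithelial markers reached 1 TPM in every library. Their summed level was 15394 to 16466 TPM in Control, against 5958 for A2ko, 6575 for A8ko and, for C9ko, 9113 and 8862. KRT5, KRT14, KRT6A and DSG3 were lower in every knockout library, whereas CDH1 was higher in every one. KRT17 was higher in A2ko and lower in A8ko. TP63 and EPCAM differed from Control by 0.15 and 0.16 log2 units in C9ko, and neither was called (limma adjusted p 0.144 and 0.140). TP63 differed by -0.53 in A2ko and -0.08 in A8ko, and EPCAM by -0.20 and 0.33. The part of these levels in the results below was not tested. The summed level of 6 fibroblast markers was 10.8 to 12.2 TPM in Control, 17.7 in A2ko and 7.36 to 11.8 in the other knockouts. COL3A1 was listed at 0 in every library, and COL1A1 was at 5.82 to 6.81 TPM in Control and 13.4 in A2ko. PTPRC, a blood cell marker, was at most 0.0232 TPM. CDH5, an endothelial gene, was at 3.21 to 4.27 TPM in Control and 8.15 to 29.9 TPM in the knockouts, and CD14, a monocyte gene, at 14.2 to 17.9 and 16.3 to 52.5 TPM, while PECAM1, VWF and CD3E stayed under 1 TPM. In bulk RNA, fewer cells of a type and less RNA per cell cannot be told apart.

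Upstream sequences were taken from RefSeq on GRCh38.p14, the 250 bases before each start site, for the 7 of 9 genes with an entry. They are shown because LAMA3 and LAMB3 held the only matches to the AP-1 motif TGANTCA (a palindrome, so both strands are covered) among the windows of these genes. Of all 35116 windows of that length, 6.57% hold such a match. This share is per window and not per gene, and LAMB3, ITGA6, ITGB1 and ITGAV had windows at additional start sites. Capitals mark the match. In LAMA3 it begins 125 and 69 bases before an internal start at position 23873020. That start lies 183577 bases inside the annotated gene, whose outermost start has no window here. In LAMB3 it begins 67 bases before the innermost of 3 starts, at position 209651374, which lies 1092 bases inside the annotated gene.
LAMA3, chr18:23872884-23872913, plus strand: ctggcacaggcTGACTCAtgtgtgaagttt
LAMA3, chr18:23872940-23872969, plus strand: ccttcctcaccTGAGTCAggcaggcccggg
LAMB3, chr1:209651423-209651452, minus strand: gtcagccactcTGACTCAttcactttgggc
The LAMA3 stretches lie in an annotated exon, and the LAMB3 stretch lies in no annotated exon. The other 2 LAMB3 windows held no match.

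COL17A1, the gene with the widest range between knockout groups on the log2 scale, is shown too. Its upstream stretch outside annotated exons, with a TATAAA match in capitals, has no AP-1 match. TATAAA, searched on both strands, was found in 10.7% of all windows, ITGA6 and ITGB1 among them.
COL17A1, chr10:104085958-104086130, minus strand: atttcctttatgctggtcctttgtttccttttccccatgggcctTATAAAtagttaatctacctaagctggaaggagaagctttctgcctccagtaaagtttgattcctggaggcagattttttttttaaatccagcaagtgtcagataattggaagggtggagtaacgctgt
The TEAD motif GGAATG, searched on both strands and present in 11.9% of all windows, was found once in the windows of the 7 genes, upstream of ITGB1. A match is a run of letters, not a shown binding site, and the files give gene totals that do not say which start was used.

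In C9ko, 8 of the 9 genes rose, by 0.29 to 1.22 log2 units, and none fell; ITGB6, ITGB1, ITGAV, ITGA3 and LAMB3 rose most, to 1.91 to 2.39 times Control. Of all tested genes 29.5% were called, 22.0% higher and 7.42% lower. With only the 10971 genes of a mean of at least 5 TPM, 4049 were called, 3231 of them higher. In A8ko all 9 genes lay above the Control range, as did 46.9% of all tested genes, with ITGA3 and LAMB3 furthest above. In C9ko 9 lay above it too (41.1% of tested genes). In A2ko 6 genes lay above the range and 3 below, against 50.4% and 26.3% of tested genes: COL17A1 was at 0.306 and ITGA6 at 0.610 of the Control mean. For 3 genes A2ko lay below and both other knockouts above the range, as for 7.26% of tested genes, and 30.7% had some pair of knockouts on opposite sides.

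**Figure D1:**
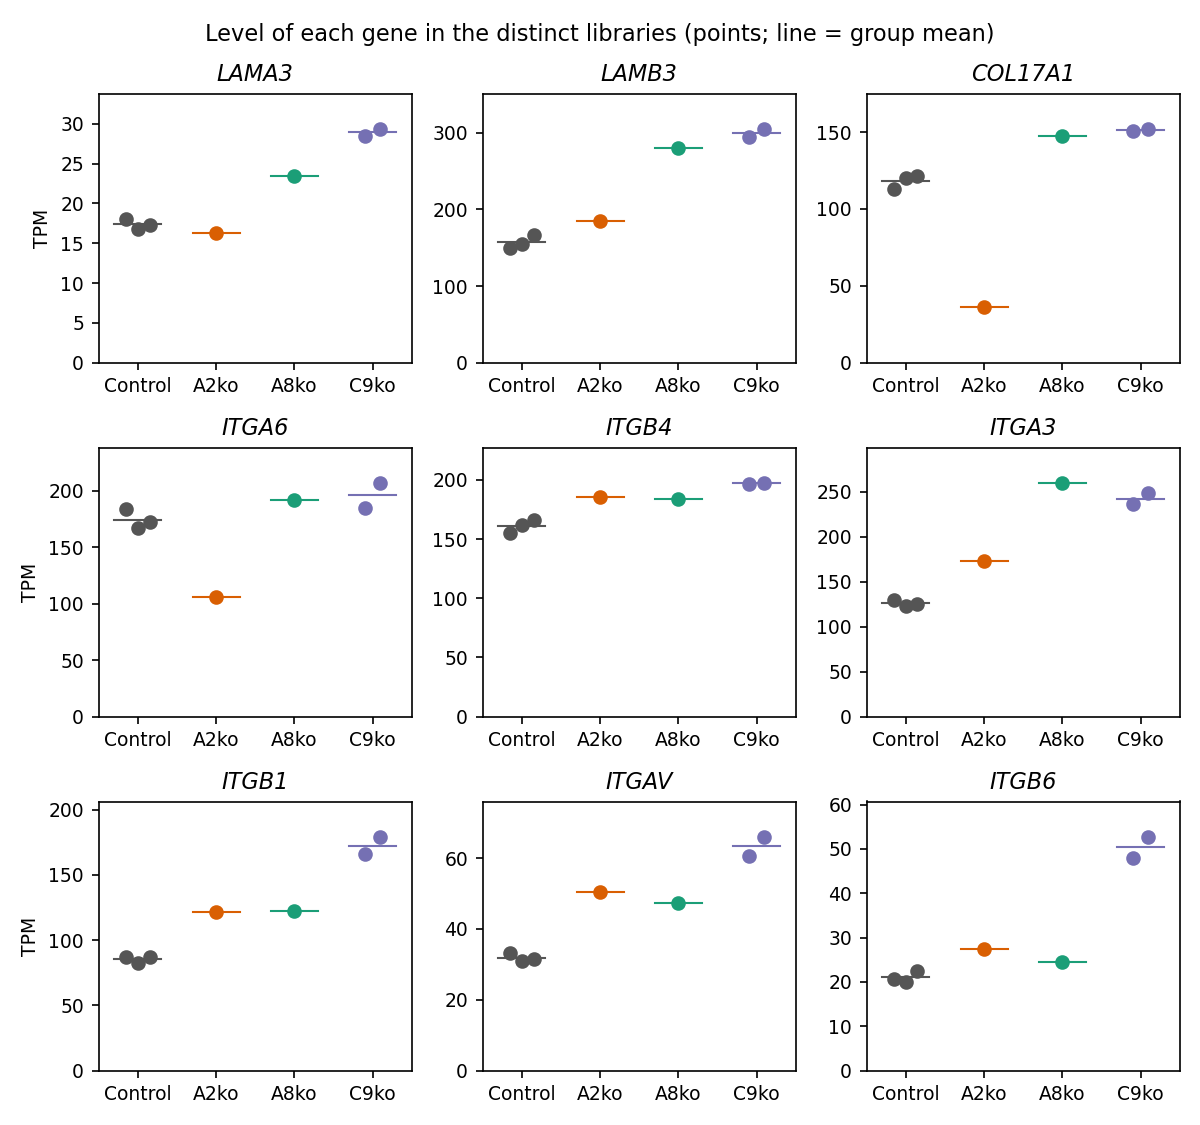
TPM (linear axis from 0) of each of the 9 genes in the 7 distinct libraries, with 1 point per library and a line at the group mean; A2ko and A8ko have 1 library each. COL17A1 stands at 36.2 TPM in A2ko and at 113 to 152 TPM in all other libraries, and ITGB6 stands at 48.0 and 52.8 TPM in C9ko and at 20.1 to 27.5 TPM elsewhere.

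The laminin-332 chains were examined first, as the ligand of the hemidesmosome. LAMB3, the beta3 chain (ENSG00000196878, chromosome 1, 209614870 to 209652466, minus strand), was at 149.8, 155 and 167 TPM in Control, against 185 for A2ko, 279.8 for A8ko and, for C9ko, 295 and 306. Every knockout library lay above every Control library, and A8ko lay close to C9ko. In C9ko the level was 1.91 times the Control mean of 157 ± 8.62 TPM (SD, n = 3), a rise of 0.93 log2 units (SE 0.07, limma adjusted p 0.000164).

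LAMA3, the alpha3 chain (ENSG00000053747, chromosome 18, 23689443 to 23956222, plus strand), was the less abundant, at 18.1, 16.8 and 17.3 TPM in Control, against 16.3 for A2ko, 23.4 for A8ko and, for C9ko, 28.5 and 29.4. A8ko and C9ko lay above the Control range and A2ko just below it. The rise in C9ko was 0.70 log2 units (SE 0.07, limma adjusted p 0.000523), or 1.66 times Control. LAMA3 is spread over several start sites and the TPM is a gene total, so the level of its long and short products is not resolved.

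The ratio of LAMA3 to LAMB3 TPM within a library, which does not depend on how the library is scaled, was 0.121, 0.108 and 0.104 in Control. It was lower in every knockout library, at 0.0880 for A2ko, 0.0838 for A8ko and, for C9ko, 0.0965 and 0.0962. With 1 value per knockout group the mean difference was -0.31 log2 units, and the two-sided exact permutation p of 0.1 is the smallest that 3 values against 3 allow (adjusted p 0.5 over 5 ratios).

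The hemidesmosome genes moved least in C9ko and furthest apart in A2ko. COL17A1, a transmembrane collagen (ENSG00000065618, chromosome 10, 104031286 to 104085957, minus strand), was at 113, 120.4 and 122 TPM in Control and at 36.2 TPM in A2ko. It was at 147 TPM in A8ko and at 150.4 and 152 TPM in C9ko. A2ko was thus below, and all other knockout libraries above, the Control range. The A2ko value was 0.306 of the Control mean of 118 ± 4.71 TPM (SD, n = 3), a log2 difference of -1.68 in 1 library. The rise in C9ko was 0.35 log2 units (SE 0.06, limma adjusted p 0.00615). It was 0.22 under median-of-ratios scaling (limma adjusted p 0.0405).

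COL17A1 was the only one of the 9 genes in A2ko to lie outside the Control range by 1 log2 unit or more. Over all tested genes 5.07% did so, and 1.53% on the lower side. Each Control library held against the other 2 gave 0 of the 9, and 0.614%, 0.661% and 0.643% of tested genes. The 606 higher and 261 lower genes of A2ko became 472 and 331 under median-of-ratios scaling.

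ITGA6, the alpha subunit of the hemidesmosome integrin (ENSG00000091409, chromosome 2, 172427354 to 172506282, plus strand), was at 184, 167 and 172 TPM in Control, against 106 for A2ko, 192 for A8ko and, for C9ko, 185 and 207. A2ko stood below all other libraries, at a log2 difference of -0.71. A8ko and C9ko lay just above the Control range on the deposited scale and overlapped it under median-of-ratios scaling. ITGA6 was the gene of the 9 that did not pass the test in C9ko, with a difference of 0.17 log2 units (SE 0.08, limma adjusted p 0.148) and of 0.04 under that scaling.

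ITGB4, whose only known partner is ITGA6 (ENSG00000132470, chromosome 17, 75721328 to 75757818, plus strand), was at 155, 162 and 166 TPM in Control, against 185 for A2ko, 184 for A8ko and, for C9ko, 197 and 198. The knockout libraries lay above the Control range in all groups, by a small margin. The rise in C9ko was 0.29 log2 units (SE 0.06, limma adjusted p 0.0119) and 0.16 under median-of-ratios scaling, where the adjusted p was 0.0841. Without C9ko replicate 1 or 2 the adjusted p was 0.0582 or 0.0648. ITGB4 overlaps GALK1 on the other strand, whose TPM reached at most 9.33% of that of ITGB4, and the use of strand in counting is not given in the sources used here.

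ITGA6 and ITGB4 were near parity in most libraries. The ratio of ITGA6 to ITGB4 was 1.19, 1.03 and 1.04 in Control, 1.04 for A8ko and, for C9ko, 0.940 and 1.05, but 0.574 in A2ko. The groups overlap apart from A2ko, and the exact permutation p over group values was 0.3 (two-sided, adjusted 0.667).

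**Figure D2:**
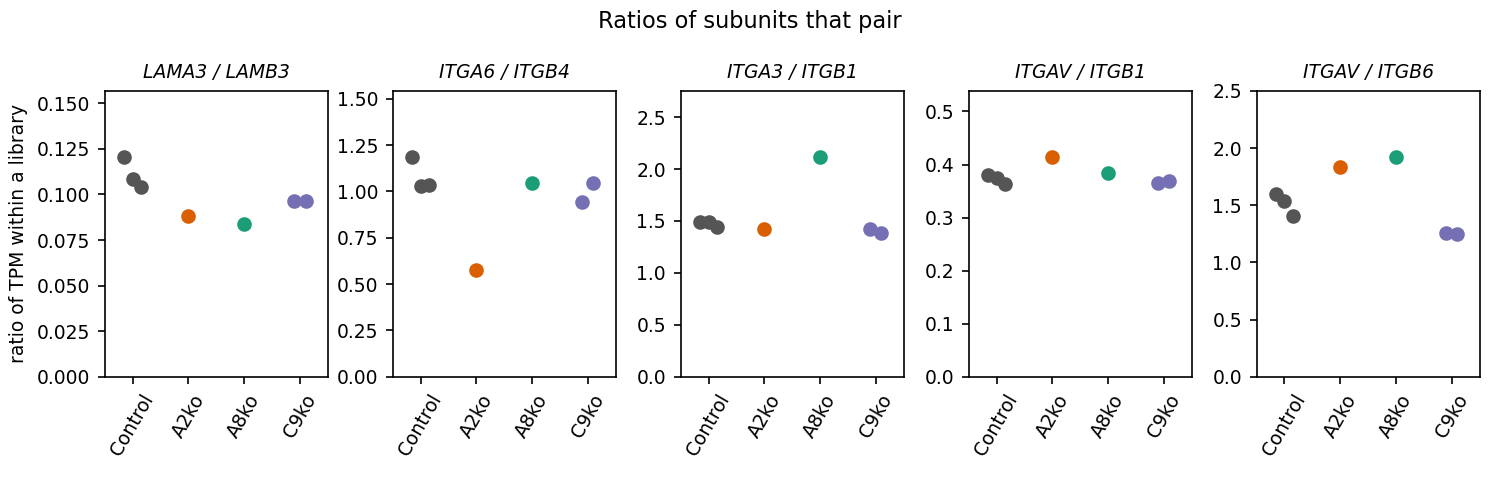
Ratio of TPM within each library (linear axes from 0) for the 5 pairs of chains or subunits that assemble together, with 1 point per distinct library. The low A2ko point of 0.574 for ITGA6 over ITGB4 and the high A8ko point of 2.12 for ITGA3 over ITGB1 stand apart from the other libraries of their panel.

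Both subunit genes of the beta1 laminin receptor were higher in every knockout library. ITGA3 (ENSG00000005884, chromosome 17, 50055968 to 50090481, plus strand) was at 129, 123 and 125 TPM in Control, against 173 for A2ko, 260.0 for A8ko and, for C9ko, 236 and 248. Levels rose from Control to A2ko to C9ko to A8ko with no overlap. In C9ko the rise was 0.94 log2 units (SE 0.06, limma adjusted p 0.000101), and A8ko differed by 1.04 from Control. ITGA3 was the only one of the 9 genes outside the Control range by at least 1 log2 unit in A8ko, against 4.73% of all tested genes and 2.05% on the higher side. Under median-of-ratios scaling its difference was 0.94, so that none of the 9 was counted.

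ITGB1, the beta subunit shared by many integrins (ENSG00000150093, chromosome 10, 32900319 to 33005792, minus strand), was at 86.9, 82.5 and 86.8 TPM in Control, against 122 for A2ko, 123 for A8ko and, for C9ko, 166 and 179. A2ko and A8ko lay at nearly the same level between Control and C9ko. The C9ko level was 2.02 times the Control mean of 85.4 ± 2.53 TPM (SD, n = 3), a rise of 1.005 log2 units (SE 0.07, limma adjusted p 0.000106).

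The balance of ITGA3 to ITGB1 was 1.49, 1.49 and 1.44 in Control, 1.42 in A2ko, and 1.43 and 1.38 in C9ko. A8ko stood apart at 2.12, with the highest ITGA3 level of all libraries and an ITGB1 level near that of A2ko. The exact permutation p over group values was 1.0 (two-sided), since A8ko lay on 1 side and the other knockouts on the other.

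Of the 9 genes, the beta subunit gene of the alpha-v beta6 receptor, ITGB6, showed the largest rise in C9ko. ITGB6, which pairs only with ITGAV (ENSG00000115221, chromosome 2, 160099666 to 160200313, minus strand), was at 20.7, 20.1 and 22.4 TPM in Control, against 27.5 for A2ko, 24.5 for A8ko and, for C9ko, 48.0 and 52.8. Both C9ko libraries were far above all others, and A2ko and A8ko were a little above Control. In C9ko the level was 2.39 times the Control mean of 21.1 ± 1.21 TPM (SD, n = 3), a rise of 1.22 log2 units (SE 0.08, limma adjusted p 0.000103).

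ITGAV (ENSG00000138448, chromosome 2, 186590065 to 186680901, plus strand), the alpha subunit that also pairs with other beta subunits, was at 33.1, 30.9 and 31.5 TPM in Control, against 50.4 for A2ko, 47.2 for A8ko and, for C9ko, 60.5 and 66.0. No knockout library overlapped Control. The rise in C9ko was 0.97 log2 units (SE 0.07, limma adjusted p 0.000149), or 1.99 times Control.

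ITGAV exceeded ITGB6 in every library. Their ratio was 1.60, 1.54 and 1.41 in Control, against 1.83 for A2ko, 1.93 for A8ko and, for C9ko, 1.26 and 1.25. A2ko and A8ko lay above the Control ratios and C9ko below them, and the exact permutation p over group values was 0.6 (two-sided, adjusted 0.75). The ratio of ITGAV to ITGB1 ranged only from 0.363 to 0.415 over all 7 libraries, with a p of 0.4 by the same test (adjusted 0.667).

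**Figure D3:**
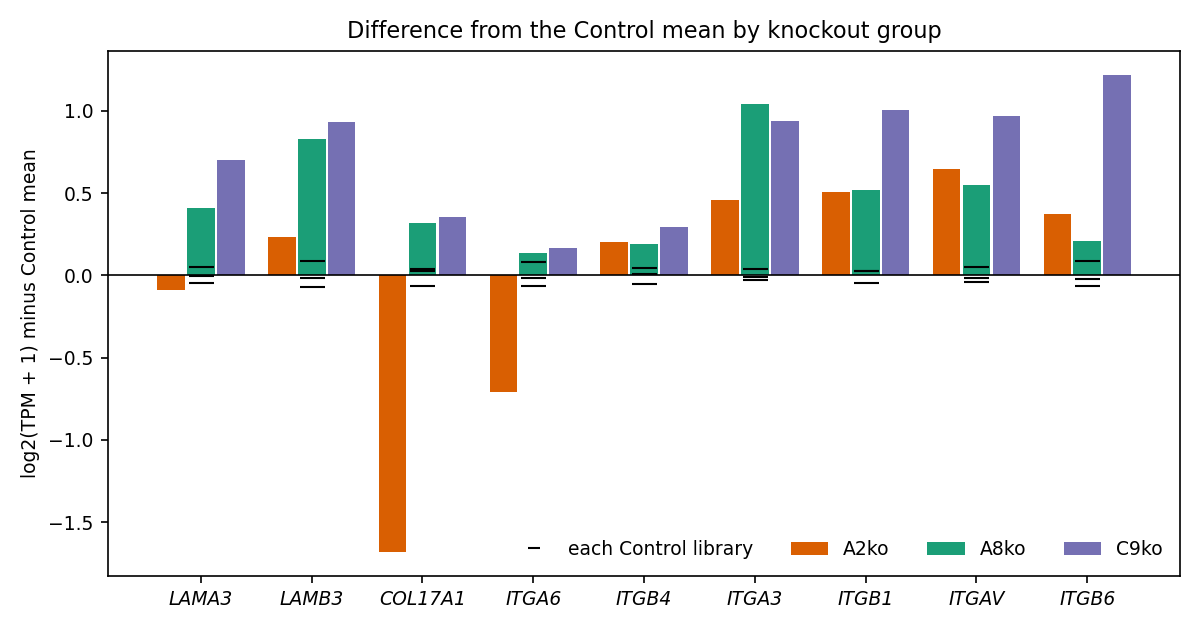
Difference of each knockout group from the Control mean on the log2(TPM + 1) scale (bars from 0; C9ko is the mean of 2 libraries, A2ko and A8ko are 1 library each), with dashes for each Control library. The C9ko bars are all above 0, from 0.17 for ITGA6 to 1.22 for ITGB6, and the A2ko bars are below 0 for COL17A1, ITGA6 and LAMA3.

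Over the whole table, 3770 genes were called higher and 1268 lower in C9ko. Under median-of-ratios scaling these became 2626 and 2187, with 7 of the 9 genes called, and with mitochondrial genes left out 2899 and 1878, with 8 called. The median difference of the 9 genes in C9ko was 0.93 log2 units against 0.11 over all tested genes. In A8ko these medians were 0.41 and 0.09, and in A2ko 0.24 and 0.12.

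To ask what the 3 knockouts share, each group was taken as 1 value against the 3 Control libraries, so that the spread between knockouts counted as error. By limma 0 of the 9 genes passed, against 1.03% of all tested genes (87 higher and 89 lower, or 42 and 98 under median-of-ratios scaling), and 6 of the 9 had an unadjusted p under 0.05, as did 16.0% of tested genes. ITGAV came nearest, at 0.72 log2 units (SE 0.12, adjusted p 0.0565), then ITGA3 at 0.81 (SE 0.16, adjusted p 0.0736) and ITGB1 at 0.68 (SE 0.15, adjusted p 0.0955). COL17A1 had a mean difference of -0.34 with an SE of 0.51, the widest of the 9. Without A2ko, 6 genes were called (LAMA3, LAMB3, COL17A1, ITGA3, ITGB1 and ITGAV), all higher, against 11.7% of tested genes called and 8.08% called higher. COL17A1 then stood at 0.33 log2 units, with an adjusted p of 0.0368. Without A8ko, and likewise without C9ko, 0 of the 9 were called, where 126 and 67 of all 17100 tested genes were.

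All 4 knockout libraries lay above all 3 Control libraries for 6 of the 9 genes (LAMB3, ITGB4, ITGA3, ITGB1, ITGAV and ITGB6), and below them for none. Of all tested genes 17.0% lay above and 4.61% below, or 2911 and 788 genes. The split over all genes was 1536 and 1600 under median-of-ratios scaling and 2226 and 1074 with mitochondrial genes left out, and 6 of the 9 lay above in each. The summed TPM of the 9 genes was 877 to 909 in Control, against 902 for A2ko, 1281 for A8ko and, for C9ko, 1366 and 1438. A2ko thus fell within the Control range in sum, with COL17A1 and ITGA6 lower and the other integrins higher.

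The order of the 4 group means was set against the spread within groups, taken from the Control and C9ko libraries. Of 27 neighbouring pairs of groups over the 9 genes, 19 lay more than 2 SD apart and 8 did not. Over all tested genes 33.7% of such pairs did. That share takes in genes of every level, whereas the 9 genes stood at 16.3 TPM or more. The part of expression level in this difference was not tested. A8ko and C9ko were within 2 SD for LAMB3, COL17A1 and ITGA6. A2ko and A8ko were within 2 SD for ITGB4, ITGB1, ITGAV and ITGB6. Control and A8ko were within 2 SD for ITGA6 only.

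Profiles were compared as the root mean square difference, over the 7 libraries, of log2 values each set to its own Control mean. Among the 9 genes ITGB1 and ITGAV were the nearest pair, at 0.06. For genes that differed by at least 1 log2 unit in a knockout, the nearest of 10967 other genes were also found. COL17A1 was nearest to ATF3, a stress-induced transcription factor, at 0.07, with 35.7, 33.8 and 36.4 TPM in Control, against 10.8 for A2ko, 43.7 for A8ko and, for C9ko, 41.2 and 47.6. Its next was ZBED2 at 0.16. ITGA3 was nearest to DCBLD2 at 0.04 and RELB at 0.05, ITGB1 to ARSI at 0.05 and ITGAV at 0.06, and ITGB6 to CMTM6 at 0.04 and XPC at 0.07. With so many genes and 7 libraries these are descriptions only.

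The genes lie on 5 chromosomes. Their neighbours, with a lowest coordinate within 2 Mb of that of the gene, were read for shifts of whole stretches. In A2ko the 36 tested neighbours of COL17A1 had a median difference of 0.07 log2 units and the 28 neighbours of ITGA6 one of 0.02. In C9ko the 20 neighbours of ITGB6 had a median of -0.02 and the 8 of ITGB1 one of 0.09. In A2ko the 78 neighbours of ITGB4 had a median of 0.20, the same as ITGB4 itself (0.20). The 53 of ITGA3 and 5 of ITGAV had medians of 0.21 and 0.24, where these genes differed by 0.46 and 0.65. Over all tested genes the A2ko median was 0.12. For the 5 neighbours of ITGAV the Control libraries themselves ran from -0.13 to 0.07. With a window of 5 Mb the A2ko median was 0.04 for ITGAV (32 genes), 0.20 for ITGB4 and 0.22 for ITGA3. The 15 neighbours of LAMA3 stood higher in C9ko, at 0.32, where LAMA3 itself differed by 0.70. A copy number was not measured.

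The wider adhesion machinery was described by lists of genes, by counts alone. Of all 17100 tested genes, 22.0% were called higher and 7.42% lower in C9ko. The list counts are given on the deposited scale only. Over all genes the C9ko calls were 2626 higher and 2187 lower under median-of-ratios scaling. Of the 10971 genes with a mean of at least 5 TPM, 3231 were higher and 818 lower. Outside the Control range by 1 log2 unit or more lay 606 above and 261 below in A2ko, and 350 above and 459 below in A8ko. Of 15 tested genes of the basement membrane list, 12 were called higher and 1 lower in C9ko, with a median of 0.62. COL4A2, a chain of collagen IV, averaged 32.1 ± 1.45 TPM over the Control libraries (SD, n = 3), against 29.2 for A2ko, 60.1 for A8ko and, for C9ko, 69.7 and 76.6 (rise of 1.16, limma adjusted p 9.35e-05). In A2ko and A8ko, 0 of the 15 lay outside the Control range by 1 log2 unit.

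Of the 5 hemidesmosome partners, 2 rose and 2 fell in C9ko, against 22.0% and 7.42% of all tested genes. The plakin PLEC and the tetraspanin CD151 rose by 0.33 (limma adjusted p 0.0120) and 0.35 (limma adjusted p 0.00543). The remaining partner, DST, differed by -0.06 (limma adjusted p 0.613). These 3 are named here after their values were seen. In A2ko and A8ko PLEC differed by -0.07 and 0.36, CD151 by 0.48 and -0.02, and DST by -0.46 and 0.19. The basal keratins anchored by hemidesmosomes fell: KRT14 by 1.61 (limma adjusted p 8.16e-05) and KRT5 by 0.74 (limma adjusted p 0.00119). KRT14 was at 3549, 3796 and 4286 TPM in Control, against 313 for A2ko, 867 for A8ko and, for C9ko, 1283 and 1247. A2ko was the lowest and Control the highest, with no overlap; both keratins also belong to the squamous markers given above. In A2ko and in A8ko these 2 keratins, and 0 other genes of the list, lay below the Control range by 1 log2 unit.

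Among 9 other integrin subunits tested, 5 were called higher and 1 lower in C9ko, against 22.0% and 7.42% of all tested genes. ITGB5, another partner of ITGAV, averaged 6.59 ± 0.556 TPM over the Control libraries (SD, n = 3), against 9.73 for A2ko, 16.8 for A8ko and, for C9ko, 16.4 and 16.6 (rise of 1.21, limma adjusted p 0.000160). ITGB2, a leukocyte integrin subunit, rose by 2.02 (limma adjusted p 0.000182) from 0.725 to 1.31 TPM in Control to 6.76 and 6.99. ITGA4 fell by 1.78 in C9ko (limma adjusted p 6.83e-05), from 7.43 TPM to 1.60 and 1.32, and was at 0.586 in A8ko but 10.7 in A2ko. ITGB8, a further ITGAV partner, was highest in A2ko, at 38.4 TPM, where the Control libraries averaged 14.8 ± 0.764 (SD, n = 3). By the same fold rule 2 of the 9 lay above Control in A2ko and 0 below, and in A8ko 2 above and 1 below.

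Of 21 tested genes for integrin activators and focal adhesion proteins, 14 were called higher and 1 lower in C9ko. Over all tested genes these shares were 22.0% and 7.42%. ACTN1, an actin crosslinker of focal adhesions, was the only list gene called over all knockouts, with a rise of 0.86 (SE 0.09, limma adjusted p 0.0168). It averaged 106 ± 6.28 TPM over the Control libraries (SD, n = 3), against 180.2 for A2ko, 192 for A8ko and, for C9ko, 203 and 211. FERMT2, an integrin-activating kindlin, rose by 1.62 in C9ko (limma adjusted p 0.000298). In A2ko and A8ko 0 of the 21 genes lay outside the Control range by 1 log2 unit.

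The list of soluble and provisional matrix ligands had 7 genes higher and 1 lower of 11 in C9ko, against 22.0% and 7.42% of all tested genes. Not every gene on it encodes a ligand of the integrins described here. FN1 (fibronectin) averaged 8.44 ± 0.586 TPM over the Control libraries (SD, n = 3), against 4.08 for A2ko, 24.7 for A8ko and, for C9ko, 29.98 and 36.4. TGFB2, a TGF-beta ligand, rose by 2.30 in C9ko (limma adjusted p 1.84e-05) and lay 1.19 and 1.12 above Control in A2ko and A8ko. CCN2 stood at 40.4 TPM in A2ko, where the Control libraries averaged 156 ± 7.06 (SD, n = 3). In A2ko this list had a median of -0.48, with 1 gene above and 3 below the Control range by 1 log2 unit, in A8ko of 0.26, with 3 above and 0 below, and in C9ko of 0.71. Of 10 proteases listed as linked, directly or not, to laminin or collagen XVII processing, 6 were called higher in C9ko and 0 lower. Over all tested genes 22.0% were called higher and 7.42% lower. PLAU lay 1.09 above Control in A8ko.

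**Figure D4:**
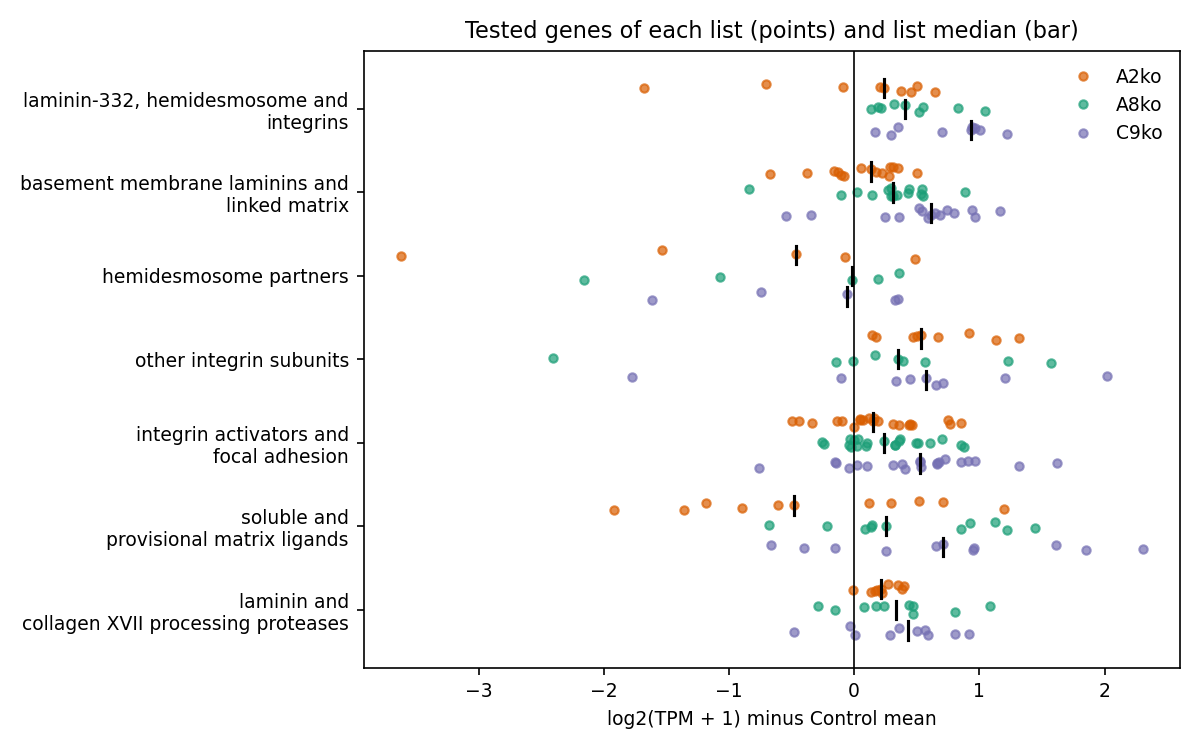
Difference from the Control mean on the log2(TPM + 1) scale (horizontal axis) for every tested gene of the 9 genes described here (top) and of the 6 lists, with 1 point per gene and knockout group and a bar at the median. The C9ko median is 0.93 for the 9 genes and -0.06 to 0.71 for the lists, and the 2 points furthest left in A2ko are KRT14 and CCN2.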

How the data were processed

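Gene expression of 9 CAL27 samples was deposited by the authors as TPM per Ensembl gene identifier. Per the labels, RNA came from a TRIzol extraction, and polyA libraries (dUTP chemistry) started from 2 ug. Per the submitters' processing notes the build was hg38; the aligner, quantification tool, annotation and use of strand are not given in the sources used here. TPM is a share, so a rise of abundant genes lowers all others. The 2 identical pairs of files were counted once each. Where nothing says that samples came from separate cultures, p-values measure only the spread between these libraries.

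Genes with at least 1 TPM in at least 2 of 7 libraries were analysed as log2(TPM + 1), which understates changes of low genes. C9ko was tested against Control with limma 3.58.1 in R 4.3.3 (all 4 groups fitted, eBayes with trend, Benjamini-Hochberg over 17100 genes, called under 0.05). All knockouts were tested by limma with 1 value per group. A2ko and A8ko were described by genes outside the Control range and at least 1 log2 unit from its mean. Ratios were compared by exact permutation. The fits were also run on simulated data, with the same shift in every knockout group. Spread between knockout groups was not simulated, so that run does not check how the fit over all knockouts handles it. Symbols were found for 61463 of 78894 identifiers, and positions came from GENCODE release 29 on GRCh38. The 9 genes, the lists and the tests were chosen with earlier results of these data known. Beyond the 9 genes, list genes named are those called over all knockouts, the 2 largest called C9ko rises and falls of at least 1 log2 unit, and the extremes in A2ko and A8ko, all with at least 5 TPM. A further list gene is not reported here, and the counts leave it out.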

Additional observations from a re-analysis of the deposited data

Results flagged for a closer look

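Knockout groups lay on opposite sides of all Control libraries for 3 of the 9 genes, as they did for 30.7% of all tested genes. In each of the 3, A2ko was below and both others above, a pattern held by 7.26% of tested genes. No test of these differences was run: they were not tested because A2ko is a single distinct library. COL17A1 was below Control in A2ko and above it in A8ko and C9ko, with 2.00 log2 units between A2ko and A8ko and 2.03 between A2ko and C9ko. ITGA6 was split in the same way, with 0.84 and 0.87 log2 units, though A8ko and C9ko overlapped Control under median-of-ratios scaling. LAMA3 was split by 0.50 and 0.79 log2 units, with A2ko only 0.09 below the Control mean.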

How the results depend on the processing

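In C9ko, LAMA3, LAMB3, ITGA3, ITGB1, ITGAV and ITGB6 were called in all 14 alternative fits, COL17A1 in 13, ITGB4 in 10 and ITGA6 in 1 (all 9 files as separate libraries). The count of all called genes was 5038, with 3301 (without C9ko replicate 2) to 4174 when 1 Control or C9ko library was left out (leaving 1 C9ko library, assumed to vary like Control), 8166 with all 9 files as separate libraries and 3248 with the replicate block. Replicate numbers are shared only as numbers: the deviations of same-numbered Control and C9ko libraries correlated at -0.05 and -0.01 across genes. The block, fitted to Control and C9ko alone, left 6 of the 9 genes called, with COL17A1 at an adjusted p of 0.0599 and ITGB4 at 0.1001.

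Over all knockouts 176 genes were called, with 5 to 165 when 1 library was left out (11, 5 and 5 without Control replicate 1, 2 or 3), 23 with no filter, 1993 without A2ko, 67 without C9ko and 4361 with the knockout average taken inside the 4-group fit. Of the 9 genes, 6 were called without A2ko, 0 without A8ko, 0 without C9ko and 8 with that average (7 higher and COL17A1 lower). COL17A1 and ITGA6 changed direction without A2ko, to 0.33 and 0.15. The counts outside the Control range went from 867 in A2ko to 1813 with a pseudocount of 0.1 and to 380 with a mean of at least 5 TPM, and from 809 in A8ko to 1689 and 412. In A8ko the count of the 9 genes fell from 1 to 0 under median-of-ratios scaling and with mitochondrial genes left out, since ITGA3 dropped just under 1 log2 unit. Where no cause is named, the cause was not tested. The ratios kept their direction in every alternative, and a window of 5 Mb moved 14 of 27 neighbour medians by more than the SD of the Control libraries. TPM keeps no depth, so no counting error can be given.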
